A study of Mus musculus with 35 samples.

Results

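The CC chemokine genes Ccl2, Ccl3, Ccl4, Ccl5, Ccl6, Ccl7, Ccl9 and Ccl24 were followed in mouse liver, 6 h after an injection of silica particles into the blood. They were chosen by symbol: 10 probe sets of the array are annotated to these 8 genes and to no other, and for each gene the probe set with the highest mean signal over all arrays was used. Ccl6 and Ccl9 each had a pair of probe sets, and the other genes had 1. These 8 genes are part of 18193 genes with such probe sets, and all 8 were among the 12678 genes that passed the filter on low signals and were tested. The 35 mice were BALB/c, and 5 were assigned at random to each of 7 groups. Control mice received deionized water. The others received 10, 20 or 40 mg/kg of SP70, 10 mg/kg of SP30, or 10 or 200 mg/kg of SP300, where the names stand for SiO2 particles of different sizes. The SP70 series asked how the response depends on dose. The SP30, SP70 and SP300 groups asked how it depends on particle size, at 10 mg/kg of each and at doses chosen for toxicity, which were 10, 40 and 200 mg/kg in order of size. Total RNA of the left lateral lobe of each mouse was measured on 1 array, at this 1 time only. Sex and age are not given in the sources used here.

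CC chemokines are small secreted proteins with adjacent cysteines near the amino end. They are held on heparan sulfate of vessel walls and matrix, and they steer leukocytes through receptors that couple to inhibitory G proteins. Ccl2 and Ccl7 bind Ccr2 and bring monocytes out of bone marrow and blood into tissue. Ccl3, Ccl4 and Ccl5 draw monocytes, T cells and NK cells, and Ccl3 and Ccl5 bind Ccr1. Ccl6 and Ccl9 are rodent chemokines that bind Ccr1, and Ccl24, also called eotaxin-2, binds Ccr3 of eosinophils. In liver, Kupffer cells, the resident macrophages of the sinusoids, take particles out of the blood and can secrete several of these proteins.

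In the RefSeq gene order Ccl2 and Ccl7 are neighbours on chromosome 11. Ccl5, Ccl9, Ccl6, Ccl3 and Ccl4 follow each other in that order elsewhere on the same chromosome, with no other protein-coding gene between them, and Ccl24 lies on chromosome 5. The RefSeq promoter table held 3 of the 8 genes, Ccl3, Ccl6 and Ccl9. These are neighbours whose signals moved differently, so the 250 bases before the start of each are shown, in build GRCm38.p6, minus strand, 5′ to 3′. Capitals mark matches to 5 motifs that were searched for: GGG and CC with 5 bases between them for NF-kB, TGANTCA for AP-1, TTGCNNAA for C/EBP and GAGGAA for PU.1, each on both strands, and TATAAA for the TATA box on the coding strand.
Ccl3 (chr11:83649379-83649628): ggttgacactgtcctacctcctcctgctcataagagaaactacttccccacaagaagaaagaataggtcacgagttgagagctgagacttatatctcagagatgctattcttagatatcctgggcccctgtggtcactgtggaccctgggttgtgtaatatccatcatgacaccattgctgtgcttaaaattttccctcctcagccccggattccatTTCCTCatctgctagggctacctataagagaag
Ccl6 (chr11:83593088-83593337): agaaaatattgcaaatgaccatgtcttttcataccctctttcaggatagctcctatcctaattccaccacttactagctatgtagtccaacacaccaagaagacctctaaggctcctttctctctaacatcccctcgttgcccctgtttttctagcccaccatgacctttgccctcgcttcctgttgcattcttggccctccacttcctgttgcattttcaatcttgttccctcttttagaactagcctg
Ccl9 (chr11:83578637-83578886): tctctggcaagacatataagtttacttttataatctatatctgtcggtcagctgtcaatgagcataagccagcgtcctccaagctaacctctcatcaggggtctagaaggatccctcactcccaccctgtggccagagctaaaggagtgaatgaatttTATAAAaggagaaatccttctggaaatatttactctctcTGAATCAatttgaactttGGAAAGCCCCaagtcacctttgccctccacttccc

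The Ccl9 window held the TATA box letters, starting 92 bases before the start of the gene. It also held TGAATCA, the AP-1 letters, from base 53 before the start, and the NF-kB letters on the opposite strand, GGAAAGCCCC, from base 35. The Ccl3 window held TTCCTC, the PU.1 letters on the opposite strand, starting 33 bases before the start. The Ccl6 window held none of the 5. Among 32851 RefSeq promoter windows of the same length, 45.8% held the NF-kB letters, 23.3% the PU.1 letters, 9.6% the C/EBP letters, 7.6% TATAAA and 6.7% the AP-1 letters. A match here is a match of letters only. The longest run of letters shared by the Ccl6 and Ccl9 windows was GCCCTCCACTTCC, 13 bases long, starting 55 bases before the start of Ccl6 and 14 bases before that of Ccl9, and 3 of the 32851 windows contained it.

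The values are array signals on a linear scale. Array medians lay between 149 and 180.2, and a signal of 165, the median of all values, served as the lower limit for folds, because the table gives no detection calls. The sums over 6 hepatocyte markers, Alb among them, ran from 436862 to 586777 in all 7 groups, so the defining markers of the labelled tissue were present. The 12 Kupffer cell markers, Clec4f, Timd4 and Vsig4 among them, summed to 27491 to 39763 in control mice. Log2 changes are of the signal plus 12.5, with the standard error (SE) of the limma model over all 35 arrays. Adjusted p-values are limma's after Benjamini-Hochberg adjustment across all 12678 genes, and a change was called at an adjusted p under 0.05. Ranges in parentheses after a log2 difference are 95% intervals. A fold is the ratio of geometric means without that addition. It is given as at least that size where mice of the lower group lay under 165, and their signals were then set to 165. The log2 changes in such comparisons depend on the addition of 12.5 and are no bounds. The 6 comparisons with water share the same 5 control mice. Overlap between groups is a description of the signals of single genes, and its share over all genes is not given.

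Against control mice, 6 of the 8 genes rose after SP70 at 10 mg/kg (Ccl2, Ccl3, Ccl4, Ccl5, Ccl7 and Ccl9), while 18.1% of all genes tested were called in that comparison. These 6 genes also rose after SP70 at 20 mg/kg, where Ccl24 fell (7 of 8 called, against 39.6% of all genes), and after SP70 at 40 mg/kg, again with lower Ccl24 (7 of 8, against 44.3%). SP30 at 10 mg/kg raised 7 genes, Ccl6 among them, and Ccl24 fell (8 of 8, against 49.2%). SP300 at 200 mg/kg raised the same 6 as SP70 and lowered Ccl6 and Ccl24 (8 of 8, against 30.6%). SP300 at 10 mg/kg gave 1 called gene, Ccl9 (1 of 8, against 1.17%), with 3 of the 8 under an unadjusted p of 0.05. The median log2 change of the 8 genes was 1.88, 1.66 and 1.67 at the rising SP70 doses, 2.21 for SP30, -0.01 for SP300 at 10 mg/kg and 1.35 at 200 mg/kg. Over all genes tested the median lay between -0.12 and 0.06 in the 6 comparisons. In RNA of whole liver, a fall in the number of cells that carry a transcript and a fall in the transcript per cell cannot be told apart, and the same holds for a rise.

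**Figure D1:**
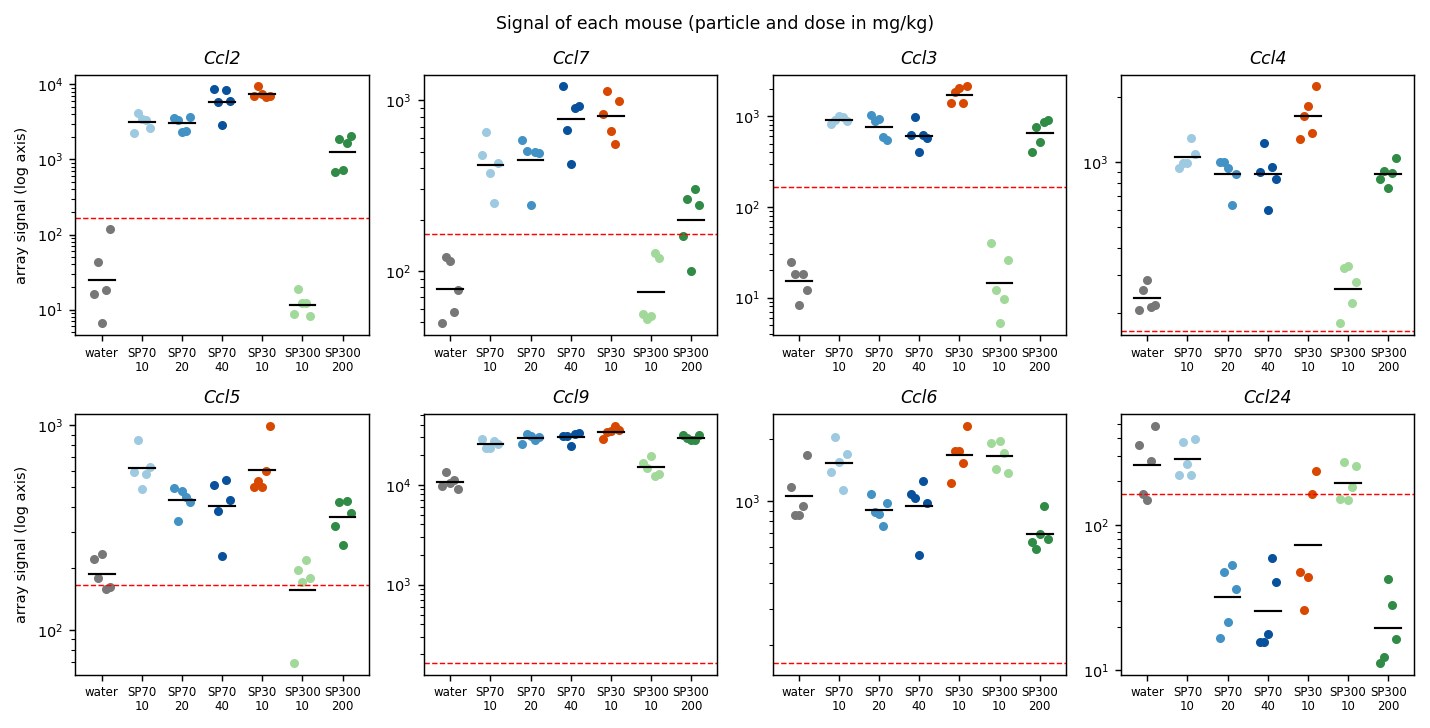
Array signal of each mouse on a log axis, 1 panel per gene and 1 column per group of 5 mice (water, then particle and dose in mg/kg), with a black line at the geometric mean and a red dashed line at 165. Ccl2 and Ccl3 lay below the line in every control mouse and every mouse given SP300 at 10 mg/kg, and above it in all other mice, whereas Ccl24 lay below it in every mouse given SP70 at 20 or 40 mg/kg or SP300 at 200 mg/kg.

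**Figure D2:**
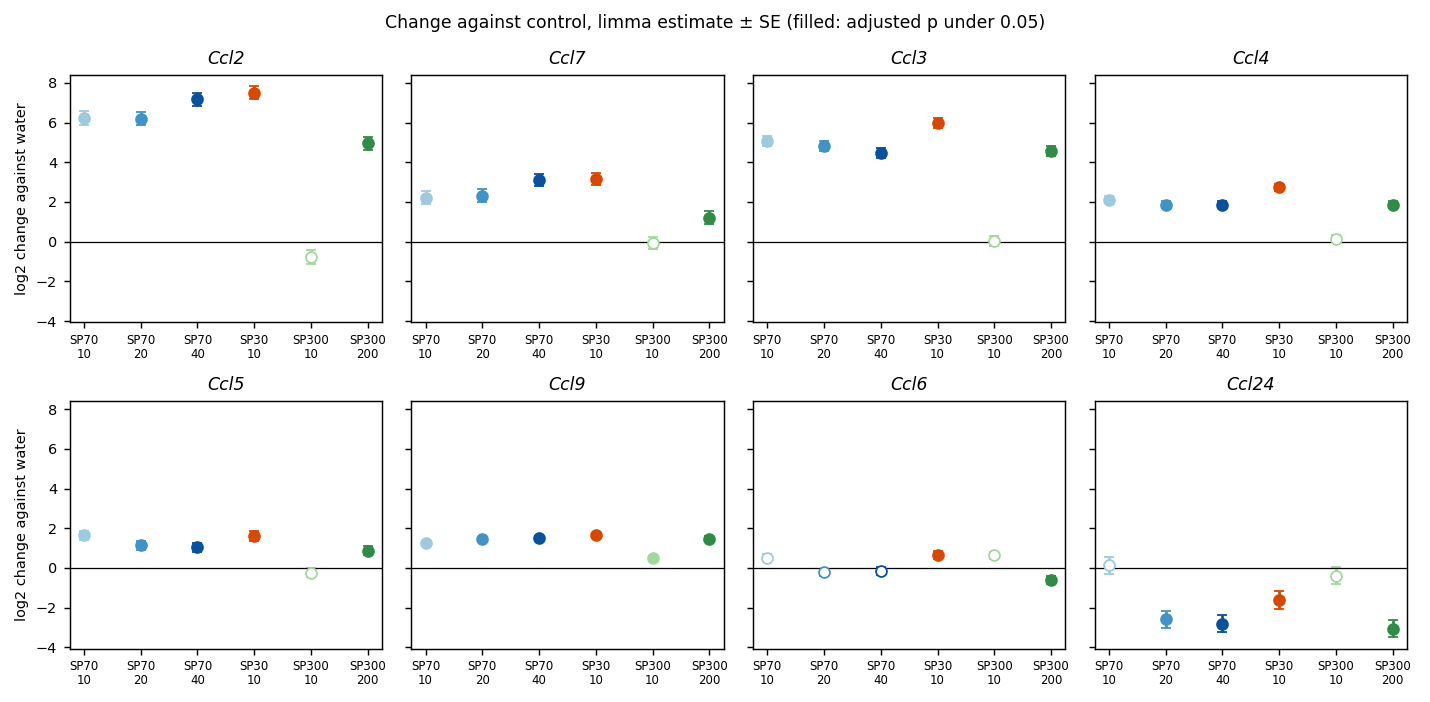
Log2 change of each gene against control mice, 1 panel per gene, with the limma estimate as a point, its SE as a bar and filled points where the adjusted p was under 0.05. Ccl9 is filled in all 6 comparisons, and Ccl2 reached 7.51 for SP30 against 4.95 for SP300 at 200 mg/kg.

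Ccl2, the main ligand of Ccr2, rose in the 5 comparisons other than SP300 at 10 mg/kg. The 5 control mice read 16.1, 42.6, 6.56, 18.3 and 119, all under the lower limit. After SP70 at 10 mg/kg the 5 mice read 2249, 4135, 3515, 3366 and 2665, after 20 mg/kg 3588, 3364, 2313, 2429 and 3729.8, and after 40 mg/kg 8592, 5798, 2841, 8423 and 6047. SP30 at 10 mg/kg gave 7026, 9416, 7516, 6836 and 7031. Every mouse of these 4 groups lay above every control mouse, and the third mouse at 40 mg/kg was the only one of its group inside the range of the lower doses. SP300 at 10 mg/kg gave 8.82, 18.7, 12.3, 12.4 and 8.35, within the control range, and at 200 mg/kg 683, 1884, 725, 1678 and 2069, above all control mice and below all mice given SP70 or SP30. The rises in log2 units were 6.24 ± 0.34, 6.20 ± 0.34 and 7.16 ± 0.34 (SE, n = 5) for the rising SP70 doses, 7.51 for SP30 and 4.95 for SP300 at 200 mg/kg, with limma's adjusted p from 5.29e-19 to 1.66e-13. They correspond to rises of at least 18.9-fold, 18.3-fold, 35.8-fold, 45.5-fold and 7.67-fold. After SP300 at 10 mg/kg the log2 difference was -0.77 with a 95% interval of -1.47 to -0.07 and an adjusted p of 0.302, and no fold is given because both groups lay under the limit. Ordered by mean signal, the groups were SP30 (7565 ± 1065, SD, n = 5), SP70 at 40 (6340.0 ± 2347), 10 (3186 ± 740.2) and 20 mg/kg (3085 ± 666), SP300 at 200 mg/kg (1408 ± 657), and the 2 groups under the limit. SP30 overlapped SP70 at 40 mg/kg, and SP70 at 10 mg/kg overlapped that at 20 mg/kg.

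Ccl7, the neighbour of Ccl2 and also a Ccr2 ligand, followed a similar order at lower contrast. Control mice read 49.3, 120.1, 115, 57.5 and 77.6, and mice given SP300 at 10 mg/kg read 56.1, 52.3, 54.5, 128 and 118, all under 165. After SP70 the signals were 475, 653, 377, 250.0 and 426 at 10 mg/kg, 588, 501, 242, 499 and 491 at 20 mg/kg and 1204, 666, 423, 900.3 and 919.6 at 40 mg/kg. SP30 gave 830.1, 1131, 658, 554 and 988. All mice of these 4 groups lay above the highest control mouse. SP300 at 200 mg/kg gave 160.3, 265, 101, 303 and 244, where 2 of 5 mice were under the limit and 1 was inside the control range. The log2 changes against water were 2.22, 2.32 and 3.10 by SP70 dose, 3.15 for SP30 and 1.21 for SP300 at 200 mg/kg (each SE 0.31), with adjusted p from 2.11e-10 to 0.0028. The folds were at least 2.52, 2.70, 4.70, 4.88 and 1.21 in the same order. SP300 at 10 mg/kg differed from water by -0.05 (-0.68 to 0.58). For Ccl2 and Ccl7 alike, then, SP70 at 40 mg/kg and SP30 stood highest and SP300 at 200 mg/kg was the lowest of the 5 groups with a called rise.

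Ccl3 (MIP-1 alpha), a ligand of Ccr1, read 24.4, 18.0, 8.26, 18.1 and 12.0 in control mice and 40.1, 12.0, 5.18, 9.58 and 25.8 after SP300 at 10 mg/kg. The lowest SP70 dose gave 816, 914, 1011, 979.6 and 893, a narrow band. The signals at 20 mg/kg were 1027, 892, 933, 585 and 544, and at 40 mg/kg 618, 976, 406, 616 and 575. With rising SP70 dose the mean did not rise: it was 923 ± 76.5, 796 ± 218 and 638 ± 208 (SD, n = 5). SP30 gave 1385, 1848, 2049.8, 1399.6 and 2139, above all mice of the other 6 groups, and SP300 at 200 mg/kg gave 401, 767, 519.7, 862 and 913, where the lowest mouse lay just under the lowest of SP70 at 40 mg/kg. The log2 rise over water was 5.96 for SP30, 5.05 for SP70 at 10 mg/kg and between 4.48 and 4.80 for the other 3 groups with a rise (SE 0.25, adjusted p at most 4.87e-16). Those are rises of at least 10.5-fold for SP30 and at least 5.58-fold for SP70 at 10 mg/kg. At 10 mg/kg, SP300 differed from water by 0.03 on the log2 scale, with an interval of -0.49 to 0.54.

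Ccl4 (MIP-1 beta), which draws T cells and monocytes and lies beside Ccl3, was above the lower limit in all 35 mice, so its folds are measured. Control mice read 208, 257, 285, 214 and 217. SP70 at 10, 20 and 40 mg/kg gave means of 1061 ± 142, 892 ± 154 and 902 ± 224 (SD, n = 5), SP300 at 200 mg/kg 890.2 ± 105, and SP30 1668 ± 388. The SP30 mice read 1283, 1632, 1824, 1358 and 2243, and the lowest of them overlapped only the highest mouse of SP70 at 10 mg/kg. All mice of these 5 groups lay above all control mice. Ccl4 rose 6.97-fold after SP30, 4.50-fold after SP70 at 10 mg/kg and 3.75-fold, 3.75-fold and 3.78-fold after 20 and 40 mg/kg of SP70 and 200 mg/kg of SP300, with limma's adjusted p at most 1.39e-10. SP300 at 10 mg/kg gave 179, 322, 330.2, 222 and 277, on both sides of the control range, a log2 difference of 0.14 (-0.20 to 0.49).

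Ccl5 (RANTES), a ligand of Ccr1 and Ccr3 that T and NK cells are known to make, moved less. Its signals were 221, 179, 235, 158 and 163 in control mice, 593, 849.8, 489.8, 579.9 and 625 after SP70 at 10 mg/kg and 502, 536, 499, 596 and 997 after SP30. The fifth SP30 mouse stood well above its group. SP70 at 20 mg/kg gave 497, 339, 479, 448 and 420.0, at 40 mg/kg 511, 382, 229, 541 and 432, and SP300 at 200 mg/kg 321, 421, 261, 428 and 373. Of these 5 groups, only SP70 at 40 mg/kg overlapped control mice, through the third mouse. The log2 rises were 1.65, 1.15 and 1.04 at the 3 SP70 doses, 1.61 for SP30 and 0.87 for SP300 at 200 mg/kg (SE 0.23), and the largest adjusted p was 0.00429. These are rises of at least 3.23-fold at SP70 10 mg/kg and at least 1.86-fold at SP300 200 mg/kg. Of the 5 T and NK cell markers tested, 3, 2 and 2 rose at the SP70 doses, 1 rose after SP30 and none at either SP300 dose (limma, 1 at 10 mg/kg and 0 at 200 mg/kg at an unadjusted p under 0.05). Among all genes tested, 18.1%, 39.6% and 44.3% were called at those SP70 doses and 49.2% after SP30. For SP300 the shares were 1.17% at 10 mg/kg and 30.6% at 200 mg/kg. Only the count at 10 mg/kg of SP70 stood clearly above its share. The summed signal of T and NK cell markers over 12 genes was 833 to 1127 in control mice, 1359 to 1765 after SP70 at 10 mg/kg and 922 to 1354 after SP30. The part of T and NK cells in the Ccl5 signal was not tested.

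Ccl9 (MIP-1 gamma), a Ccr1 ligand, was bright in every mouse and rose in all 6 comparisons. Control mice read 9739.7, 13273, 10436, 11132 and 9162. SP70 gave 29056, 23426, 23343, 27631 and 25439.8 at 10 mg/kg, 25694, 32599.6, 31074, 27975 and 30243 at 20 mg/kg and 30875, 30513, 24402, 32312 and 32884 at 40 mg/kg. SP30 gave 28541, 33577, 34381, 39071 and 35543, and SP300 at 200 mg/kg gave 31459.6, 29748, 28114, 28231 and 31222. The lowest mouse of these 5 groups, at 23343, lay above the highest control mouse, at 13273. The folds were 2.41, 2.76 and 2.82 at rising SP70 dose, 3.19 for SP30 and 2.79 for SP300 at 200 mg/kg, with adjusted p at most 1.93e-11. SP300 at 10 mg/kg gave 16370.5, 14759, 19521, 12122 and 12825, overlapping the control range, a log2 rise of 0.48 ± 0.11 (1.40-fold, adjusted p = 0.0132), higher than the control mean in 5 of 5 mice. That call was lost without the third SP300 mouse (adjusted p = 0.0805), in a fit of the compared groups alone (0.149), and on the second Ccl9 probe set (0.0887). On that probe set the other 5 log2 rises were 1.44, 1.76, 1.74, 1.92 and 1.78, against 1.27, 1.46, 1.49, 1.67 and 1.48 on the first.

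Ccl6 (C10), the other rodent Ccr1 ligand and the gene next to Ccl9, changed in both directions. Control mice read 1178, 855, 860.1, 949 and 1674. The signals were 1231, 1756, 1763, 1528 and 2326 after SP30 and 633, 588, 698, 950.4 and 656 after SP300 at 200 mg/kg. SP30 raised Ccl6 1.58-fold (log2 0.65 ± 0.19, adjusted p = 0.00514), and SP300 at 200 mg/kg lowered it by 1.53-fold (log2 -0.61, adjusted p = 0.015), with ranges that overlapped control mice in both cases. The rise was not called on the second Ccl6 probe set (log2 0.43, adjusted p = 0.0583), and the fall was not called without the fifth control mouse (adjusted p = 0.0749), the highest of its group. SP70 at 10 mg/kg gave 1381, 2049, 1555, 1141 and 1688, and SP300 at 10 mg/kg gave 1913, 1428, 1955, 1723 and 1364. Their log2 differences of 0.52 (0.13 to 0.91, adjusted p = 0.0572) and 0.63 (0.24 to 1.02, adjusted p = 0.103) missed the threshold. The first passed it on the second probe set, with an adjusted p of 0.0469, and the second passed it without the fifth control mouse, at 0.0324. At 20 and 40 mg/kg of SP70 the differences were -0.22 (-0.62 to 0.17) and -0.17 (-0.56 to 0.22).

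The difference between these neighbours was also taken within each array, as the log2 of the Ccl9 signal minus that of Ccl6, a ratio in which the brightness of the array cancels. It shows unequal change, not that either gene was constant. The ratio was 3.31 ± 0.58 (SD, n = 5) in control mice, 4.99 ± 0.27 and 4.97 ± 0.30 after SP70 at 20 and 40 mg/kg, and 5.39 ± 0.32 after SP300 at 200 mg/kg. These 3 shifts of 1.69, 1.66 and 2.09 had all 5 mice above the control mean. SP30 shifted it by 1.02. SP70 at 10 mg/kg shifted it by 0.75 and SP300 at 10 mg/kg by -0.15. This pair was chosen after its signals had been seen, so the shifts are given as a description, without a p-value.

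Ccl24, the eosinophil chemokine, fell in 4 of the 6 comparisons and rose in none. Control mice read 359, 164, 149, 277 and 485, with 2 of 5 under the lower limit. SP70 at 10 mg/kg left it at 220.3, 376, 266, 223 and 393, a log2 difference of 0.13 with an interval of -0.76 to 1.02. At 20 mg/kg the mice read 16.7, 47.3, 21.5, 53.5 and 36.5, and at 40 mg/kg 15.7, 15.7, 17.8, 59.5 and 40.9. Every mouse of both doses lay below every control mouse. SP300 at 200 mg/kg gave 11.3, 12.4, 42.7, 28.1 and 16.4, also below all control mice, and SP300 at 10 mg/kg gave 152, 271, 148, 183 and 256 (log2 -0.39, -1.28 to 0.50). SP30 gave 47.2, 26.2, 43.6, 163 and 238: 3 mice were low and 2 lay within the control range. The called log2 changes were -2.59 ± 0.44, -2.80 ± 0.44, -1.61 ± 0.44 and -3.06 ± 0.44, with adjusted p of 1.07e-05, 2.29e-06, 0.0024 and 1.21e-06, for SP70 at 20 and 40 mg/kg, SP30 and SP300 at 200 mg/kg. Because the low signals are under the limit, the falls are given as at least 1.57-fold for SP70 and SP300 and at least 1.46-fold for SP30.

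Kupffer cell markers moved with the particles as well. Of the 12 tested, 9, 11 and 11 fell at the rising SP70 doses, 10 after SP30, 0 after SP300 at 10 mg/kg (limma, 0 at an unadjusted p under 0.05) and 11 after SP300 at 200 mg/kg. Of all genes, 18.1%, 39.6% and 44.3% were called by SP70 dose and 49.2% after SP30. For SP300 the shares were 1.17% at 10 mg/kg, near the 0 of 12 there, and 30.6% at 200 mg/kg. Their summed signal was 10591 to 18046, 2855 to 5287 and 1890.2 to 3138 at the 3 SP70 doses, 8542 to 18906 after SP30, 30245 to 43496 after SP300 at 10 mg/kg and 1976 to 2512 at 200 mg/kg. The mean signal of 10 of the 12 was under 165 after SP70 at 40 mg/kg and after SP300 at 200 mg/kg. Clec4f, the lectin specific to Kupffer cells, changed by -2.09, -4.59 and -6.03 at the SP70 doses. The sum and Ccl24 parted at 10 mg/kg of SP70: every mouse there had a smaller sum than any control mouse, whereas the Ccl24 signals of those mice lay inside the control range. The mean signal of all 4 eosinophil markers on the array was under 165 in every group, with sums of 112 to 238 in control mice and 105 to 173 after SP300 at 200 mg/kg. The part of Kupffer cells in the Ccl24 signal was not tested.

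**Figure D3:**
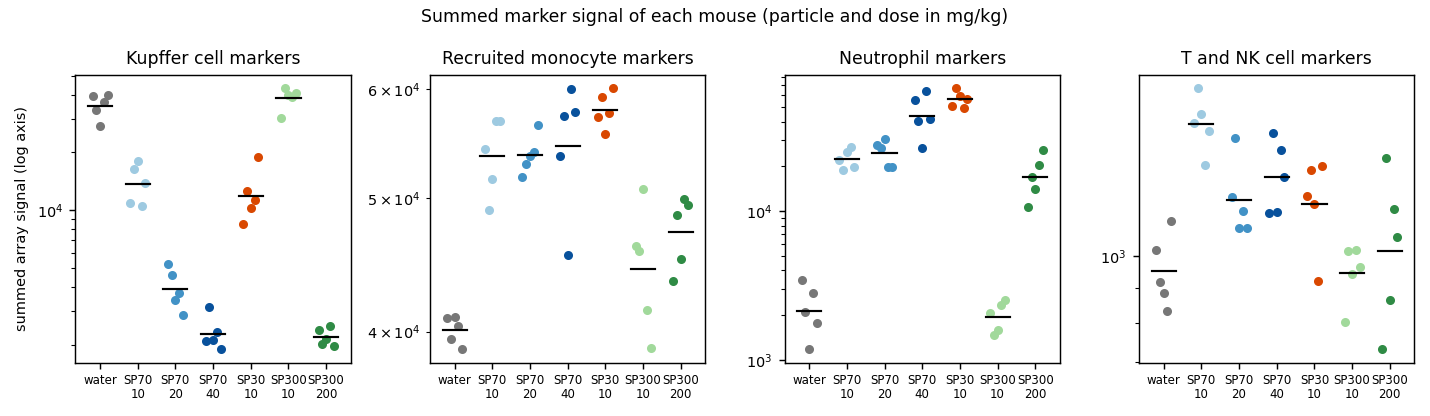
Summed array signal of marker genes per mouse on a log axis, 1 panel per cell type and 1 column per group (particle and dose in mg/kg). Kupffer cell sums were lowest after 40 mg/kg of SP70 and 200 mg/kg of SP300, and neutrophil sums were highest after SP30 (49590.3 to 67725).

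Markers of incoming leukocytes rose in the groups where most CC chemokines rose. Of 9 recruited monocyte markers tested, 8 rose and 1 fell in each of the 3 SP70 groups and after SP30, and 6 rose and 1 fell after SP300 at 200 mg/kg. The marker that fell was Cx3cr1, and 1 of those that rose, Ccr2, is also a receptor of the members. Chil3, a marker of monocytes from blood, rose by 4.71, 4.45, 4.31, 4.86 and 4.46 on the log2 scale. The sum of the 9 was 38822 to 41018 in control mice, of which fibronectin (Fn1), also made by hepatocytes, gave most. Of 9 neutrophil markers tested, 5, 6, 7, 8 and 4 rose in those 5 groups. The shares of all genes called there were 18.1%, 39.6%, 44.3%, 49.2% and 30.6%, and 1.17% after SP300 at 10 mg/kg. Among the neutrophil counts, that after SP300 at 200 mg/kg stood closest to its share. The sum over 10 neutrophil markers was 1173 to 3422 in control mice, 19036 to 27017, 19862 to 30538 and 26667 to 64639 by SP70 dose, 49590.3 to 67725 after SP30 and 10631 to 25923 after SP300 at 200 mg/kg. After SP300 at 10 mg/kg no marker of either list was called by limma (3 and 0 at an unadjusted p under 0.05), and the neutrophil sum was 1475 to 2505. The part of these cells in the chemokine signals was not tested.

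Endothelial markers moved in the same groups. Of 7 tested, 1, 2 and 4 fell and 1, 2 and 1 rose at the SP70 doses, 4 fell and 1 rose after SP30, 3 fell and 2 rose after SP300 at 200 mg/kg, and none was called by limma after SP300 at 10 mg/kg (1 at an unadjusted p under 0.05). Their sum was 12874 to 20426 in control mice, 11480.0 to 18210.4, 12613 to 16129 and 3532 to 10684 by SP70 dose, 6012 to 10739.9 after SP30, and 19027 to 20594 and 5795 to 14408 after SP300 at 10 and 200 mg/kg. The lowest mean sums were those of SP30 and SP70 at 40 mg/kg (7881 and 8432). Of 6 stellate cell markers, 1, 1 and 2 fell by SP70 dose, 3 after SP30, 0 after SP300 at 10 mg/kg (limma, 2 at an unadjusted p under 0.05) and 1 after SP300 at 200 mg/kg, and none rose. Over all genes, 18.1%, 39.6% and 44.3% were called by SP70 dose and 49.2% after SP30. After SP300 the shares were 1.17% at 10 mg/kg and 30.6% at 200 mg/kg. The stellate counts were near or under these shares. The endothelial counts were above them in all groups but SP300 at 10 mg/kg. The stellate sum was 27539 to 37069 in control mice, 17219.6 to 36210.4 after SP70 at 40 mg/kg and 18497 to 31838 after SP30. The part of endothelial and stellate cells in the chemokine signals was not tested.

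Compared directly, the SP70 doses differed in few members at each step. From 10 to 20 mg/kg, 2 of 8 were called (16.9% of all genes): Ccl24 fell by at least 1.74-fold (log2 -2.72, adjusted p = 6.22e-05) and Ccl6 by 1.68-fold (log2 -0.74, adjusted p = 0.00676), with no overlap between the groups in either gene. Ccl2 gave a log2 difference near 0 (-0.04, -0.74 to 0.66). From 20 to 40 mg/kg none of 8 was called by limma (11.5% of all genes), and 2 had an unadjusted p under 0.05, Ccl2 at 0.96 ± 0.34 (adjusted p = 0.0637) and Ccl7 at 0.78 ± 0.31 (0.0973). Without the third mouse at 40 mg/kg, both passed (0.0246 and 0.0476). The other 6 genes differed by -0.32 to 0.06.

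Over the whole range, from 10 to 40 mg/kg, 5 of 8 were called (30.5% of all genes), in opposite directions. Ccl2 rose by 1.90-fold (log2 0.92 ± 0.34, adjusted p = 0.0399) and Ccl7 by 1.86-fold (0.88 ± 0.31, 0.0295). Ccl5, Ccl6 and Ccl24 fell, with log2 changes of -0.60, -0.69 and -2.93 and adjusted p of 0.0478, 0.00613 and 4.02e-06. Ccl3 differed by -0.57 (-1.09 to -0.06), Ccl4 by -0.26 (-0.60 to 0.09) and Ccl9 by 0.23 (0.01 to 0.44), none of them called. Ccl3 was called with a pseudocount of 64 (adjusted p = 0.0317), only these groups in the fit (0.0296) or without the second mouse at 40 mg/kg (0.0332). The calls of Ccl2, Ccl7 and Ccl5 were ended by leaving out 1 mouse in 7, 5 and 7 of 10 cases. Ccl2 was lost without mouse 1, 3 or 5 at 10 mg/kg or 1, 2, 4 or 5 at 40 mg/kg (adjusted p from 0.0513 to 0.102). Ccl7 was lost without mouse 3 or 4 at 10 mg/kg or 1, 4 or 5 at 40 mg/kg (0.0591 to 0.0971), and Ccl5 without mouse 1, 2, 4 or 5 at 10 mg/kg or 2, 3 or 5 at 40 mg/kg (0.057 to 0.201). With a pseudocount of 1, without the filter or without the variance trend, Ccl2 and Ccl5 were not called, nor was Ccl5 with quantile normalization (0.0908), the replicate block (0.0506) or only these groups in the fit (0.0525). Without the third mouse at 40 mg/kg, Ccl5 was not called (adjusted p = 0.201) and Ccl9 was (0.0366). The log2 ratio of Ccl2 to Ccl3 within arrays, a pair chosen after these changes had been seen and so given with no test, was 1.75 ± 0.27 at 10 mg/kg and 3.24 ± 0.56 at 40 mg/kg (SD, n = 5), a shift of 1.50, with 5 of 5 mice above the mean at 10 mg/kg.

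**Figure D4:**
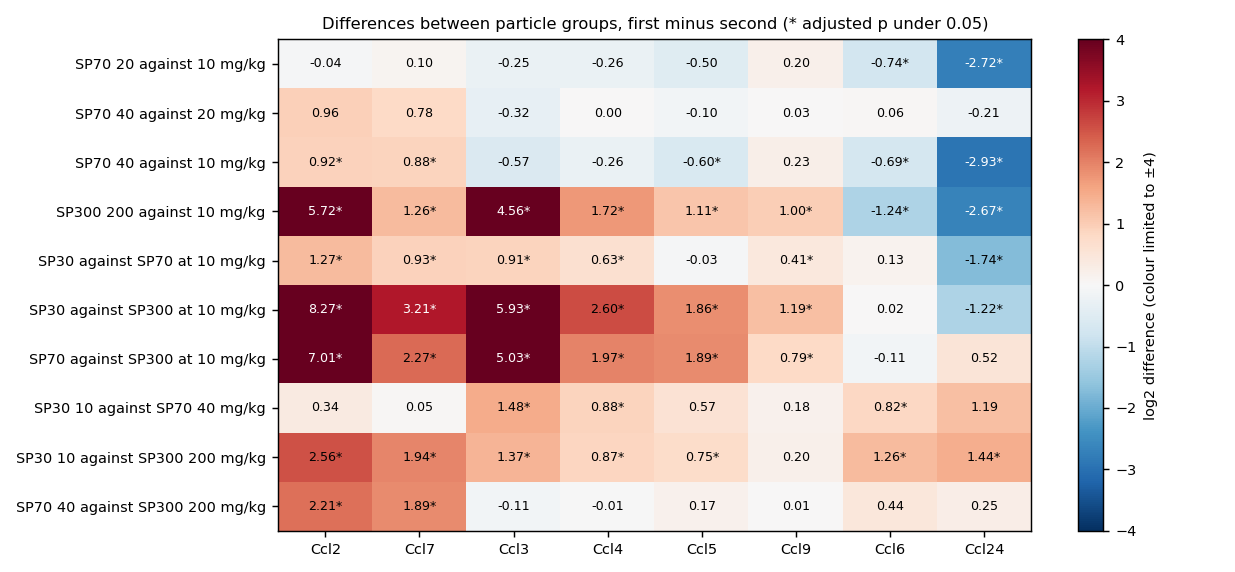
Log2 difference of each gene in the direct comparisons between particle groups, comparisons in rows and genes in columns, with the colour scale limited as stated on its bar and called differences marked. SP30 against SP300 at 10 mg/kg was called for all genes but Ccl6, with every Ccl2 signal of that SP300 group under 165, and SP70 at 40 mg/kg against SP300 at 200 mg/kg was called for Ccl2 (2.21) and Ccl7 (1.89) alone.

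At the equal dose of 10 mg/kg the 3 pairs of particle sizes were compared directly, each gene's p being adjusted over all genes within its pair. SP30 and SP70 differed in 6 of 8 genes (28.9% of all genes called). Ccl2 was 2.41-fold higher (log2 1.27 ± 0.34, adjusted p = 0.0051) and Ccl3 1.89-fold higher (0.91 ± 0.25, 0.0066), both with no overlap. Ccl4 (0.63), Ccl7 (0.93) and Ccl9 (0.41) were higher with overlap, and Ccl24 was lower (log2 -1.74, adjusted p = 0.00247). The Ccl7 call was lost in 3 of 10 fits that left out 1 mouse, the fourth of SP70, the second of SP30 or the fifth of SP30 (adjusted p = 0.0761, 0.0695 and 0.0507). Ccl5 differed by -0.03 (-0.51 to 0.44) and Ccl6 by 0.13 (-0.26 to 0.53). The log2 ratio of Ccl2 to Ccl3 was 0.36 higher after SP30.

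SP30 and SP300 at 10 mg/kg differed in 7 of 8 genes, with SP30 higher in 6 and lower in Ccl24 (51.7% of all genes called). The differences were at least 45.5-fold for Ccl2, at least 10.5-fold for Ccl3 and 6.30-fold for Ccl4, with adjusted p at most 1.11e-14. For Ccl6 the difference was 0.02 (-0.37 to 0.41). The Ccl24 difference of -1.22 (adjusted p = 0.0186) was lost without any of the first 3 SP30 mice, those with the low signals (adjusted p = 0.0524, 0.0826 and 0.0556). SP70 and SP300 at 10 mg/kg differed in 6 of 8 genes (20.6% of all genes called). Ccl2, Ccl3, Ccl4, Ccl5, Ccl7 and Ccl9 were all higher after SP70. These differences were at least 18.9-fold for Ccl2, at least 5.58-fold for Ccl3 and 4.06-fold for Ccl4. Raising SP300 from 10 to 200 mg/kg changed all 8 genes (31.7% of all genes called): 6 rose, Ccl9 by 2.00-fold, and Ccl6 and Ccl24 fell, by 2.39-fold and by at least 1.19-fold.

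At the doses chosen for toxicity, dose and size differ together. SP30 at 10 mg/kg and SP70 at 40 mg/kg differed in 3 of 8 genes, all higher after SP30 (5.73% of all genes called). Ccl3 was 2.83-fold higher (log2 1.48 ± 0.25, adjusted p = 0.000208), Ccl4 1.86-fold (0.88 ± 0.17, 0.00084) and Ccl6 1.78-fold (0.82 ± 0.19, 0.00697). Ccl2 differed by 0.34 (-0.35 to 1.04), Ccl7 by 0.05 (-0.58 to 0.68) and Ccl9 by 0.18 (-0.04 to 0.40). Ccl5 differed by 0.57 (0.10 to 1.05) and Ccl24 by 1.19 (0.30 to 2.08), not called by limma (adjusted p = 0.157 and 0.108). Every Ccl24 signal of that SP70 group was under 165, and Ccl24 was called without the second SP30 mouse (0.0451). In all, 5 of 8 had an unadjusted p under 0.05. SP70 at 40 mg/kg differed from SP300 at 200 mg/kg in 2 of 8 (15.4% of all genes), the Ccr2 ligands: Ccl2 was 4.67-fold higher (log2 2.21 ± 0.34, adjusted p = 2.91e-05) and Ccl7 at least 3.50-fold (1.89 ± 0.31, 6.13e-05), with no overlap between the groups. The differences of 4 other members were not called in this comparison, with Ccl3 at -0.11 (-0.62 to 0.41), Ccl4 at -0.01 (-0.35 to 0.34) and Ccl5 at 0.17 (-0.30 to 0.65), and Ccl9 at 0.01 (-0.20 to 0.23). The ratio of Ccl2 to Ccl3 within arrays differed by 2.32, with 5 of 5 mice above the SP300 mean. Ccl6 differed by 0.44 and was called only without the third SP70 mouse (adjusted p = 0.0171) or on its second probe set (0.0448).

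The lone SP30 dose differed from the high SP300 dose in 7 of 8 genes, each higher after SP30 (29.1% of all genes called). Ccl2 was 5.94-fold higher, Ccl7 at least 3.63-fold, Ccl3 2.63-fold, Ccl6 2.42-fold, Ccl4 1.84-fold and Ccl5 1.70-fold. For these genes limma's adjusted p was at most 0.0153. The Ccl5 call was lost without the fifth SP30 mouse (0.0683) or the third SP300 mouse (0.0512). Ccl24 was also called (log2 1.44, adjusted p = 0.0119), but 9 of the 10 signals were under the lower limit, and the call was lost without the fifth SP30 mouse (0.0612) and with only these groups in the fit (0.155). Ccl9 differed by 0.20 (-0.02 to 0.41).

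Of 13 other CC chemokines on the list, 10 were on the array and 5 passed the filter. Ccl20, a ligand of Ccr6 that draws lymphocytes and dendritic cells, rose in 5 of 6 comparisons, by 4.34, 3.16 and 4.35 log2 units at the SP70 doses, 5.14 after SP30 and 1.66 after SP300 at 200 mg/kg. Ccl17 rose after SP70 at 40 mg/kg (1.40), and Ccl28 rose there and after SP30 (0.72 and 0.85). Ccl8 and Ccl25 were called in no comparison with water (limma, log2 changes from -0.27 to 0.27, 0 at an unadjusted p under 0.05). The eotaxin Ccl11 and the Ccr2 ligand Ccl12 were not among the 5. Called were 1, 1 and 3 of the 5 by SP70 dose and 2 after SP30. After SP300, 0 and 1 were called at 10 and 200 mg/kg. The shares of all genes were 18.1%, 39.6%, 44.3%, 49.2%, 1.17% and 30.6% in the same order. The counts were near or under these shares in all groups but SP70 at 40 mg/kg.

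Of 15 CC receptors and scavenging receptors on the list, 6 were tested. Ccr1, the receptor of Ccl3, Ccl5, Ccl6 and Ccl9, rose by 2.74, 2.71 and 3.42 at the SP70 doses, by 3.73 after SP30 and by 2.09 after SP300 at 200 mg/kg. Ccr2, the receptor of Ccl2 and Ccl7, rose by 1.62, 0.93, 0.79, 0.86 and 0.61 in the same order, with the highest estimate at the lowest SP70 dose. Ccrl2, which binds chemerin and is made by activated leukocytes and endothelium, rose by 2.94 to 4.46 at the SP70 doses and after SP30, and by 2.41 after SP300 at 200 mg/kg. The scavenging receptor Ackr1 rose after SP70 and SP30 (1.14 to 1.81) and was not called after SP300 at 200 mg/kg (0.13). Ackr4 rose in the same 5 groups as Ccr1 (0.73 to 1.04). Ackr2, which takes up inflammatory CC chemokines, fell after SP30 (-0.59). In all, 5, 5, 5, 5 and 4 of the 6 rose in the 5 groups, and none was called by limma after SP300 at 10 mg/kg (1 at an unadjusted p under 0.05). Of all genes, 18.1%, 39.6%, 44.3%, 49.2% and 30.6% were called in the 5 groups, and 1.17% after SP300 at 10 mg/kg. The median log2 changes of the 6 receptors were 1.71, 1.36, 0.96, 1.26, 0.11 and 0.67 for SP70 at 10, 20 and 40 mg/kg, SP30, and SP300 at 10 and 200 mg/kg. Ccr3, the receptor of Ccl24, did not pass the filter.

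**Figure D5:**
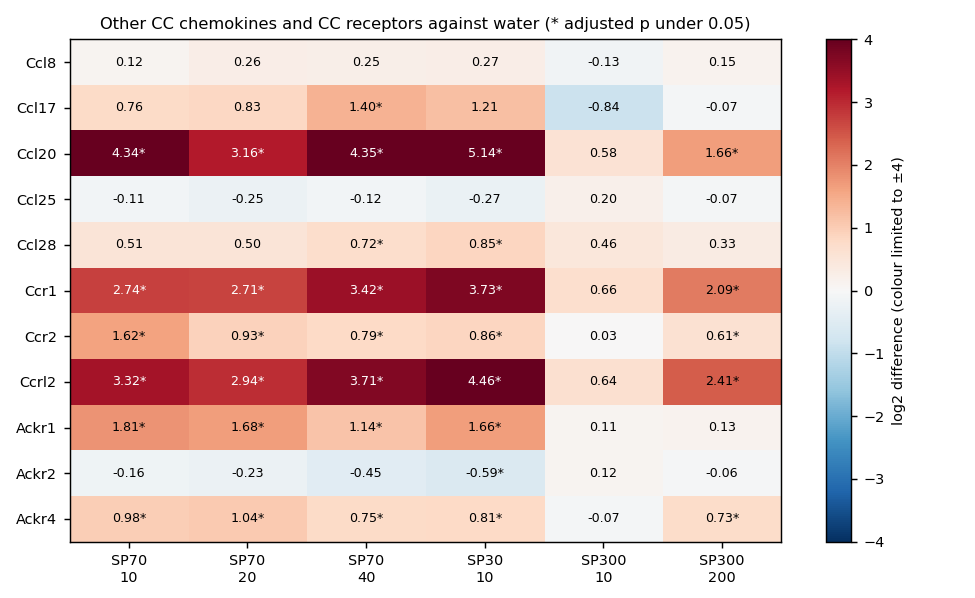
Log2 change against control mice of other CC chemokines and of the receptors tested, genes in rows and the 6 particle groups in columns, with called changes marked. Ccr1, Ccrl2 and Ccl20 were called in every group except SP300 at 10 mg/kg.

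Of 15 tested regulators of chemokine mRNA, which include NF-kB and AP-1 subunits and RNA-binding proteins, 11, 9 and 14 rose at the rising SP70 doses, 14 after SP30, 0 after SP300 at 10 mg/kg (limma, 4 at an unadjusted p under 0.05) and 6 after SP300 at 200 mg/kg, and none fell. Their median log2 changes were 1.03, 0.80, 1.77, 2.04, 0.14 and 0.51. Tnfaip3, an inhibitor of NF-kB, rose by 3.99, 3.66, 5.21, 5.13 and 2.92. Zc3h12a, an RNase that cuts inflammatory mRNAs, rose by 2.18, 1.72, 2.51, 2.79 and 1.40. Of 20 tested genes of receptor signalling, 5, 2, 3, 6, 1 and 0 rose and 1, 3, 4, 3, 0 and 6 fell in the order SP70 10, 20 and 40 mg/kg, SP30, SP300 10 and 200 mg/kg. Of all genes tested, 18.1%, 39.6%, 44.3%, 49.2%, 1.17% and 30.6% were called in these comparisons, so the 6, 5, 7, 9, 1 and 6 called here are a smaller share than that in 4 of the 6, all but SP70 and SP300 at 10 mg/kg. The medians of that list lay between -0.24 and 0.03. Rgs16, which shortens G protein signals, rose by 2.38 after SP300 at 10 mg/kg, the 1 call of that list there, and Arrb2, which uncouples receptors, fell in the other 5 groups (-0.88 to -0.31). Of 13 tested carriers and enzymes of heparan sulfate, 3, 4, 4, 4, 0 and 4 rose and 1, 4, 4, 7, 0 and 3 fell (3 at an unadjusted p under 0.05 after SP300 at 10 mg/kg), with medians between -0.32 and 0.12. Sdc4, a syndecan that carries heparan sulfate, and Ext1, which builds its chain, rose, and the syndecan Sdc3 fell, in the 5 groups other than SP300 at 10 mg/kg.

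In 2 groups, 1 mouse was the highest or the lowest of its group in at least 5 of 8 genes. The third mouse of SP70 at 40 mg/kg was the lowest of its group in 7 of 8 genes, at a mean of -0.66 log2 units from the group. It had an endothelial marker sum of 3532, against 8465 to 10684 in the other 4 mice, and also the lowest sums of stellate cell (17219.6), neutrophil (26667), recruited monocyte (45455) and hepatocyte (436862) markers of that group. The fifth SP30 mouse was the highest of its group in 5 of 8 genes. It had the highest Kupffer cell (18906), hepatocyte (543048) and recruited monocyte (60185) sums of that group. Its T and NK cell (1354), endothelial (10739.9) and stellate cell (31838.5) sums were also the highest there, and its neutrophil sum (57028) was not. The first mouse of SP300 at 200 mg/kg had an endothelial sum of 5795, against 12700 to 14408 in the other 4 mice. That mouse was the lowest of its group in 3 of 8 genes.

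For each member, the 3 other genes with the most similar pattern were taken by the root mean square (RMS) difference of the 7 group means, each gene centred on its own mean. This is a description over 7 groups, and for Ccl2, Ccl3, Ccl7 and Ccl24 it also rests on groups with signals under 165. Some of the matched genes had group means under 165 as well. Among them were Asprv1 (47.6 in control mice) and Gpr65 (162 in control mice and 95.8 after SP70 at 40 mg/kg). The smallest differences were those of Ccl5, from Sema4d (0.07 log2 units) and the interferon-inducible chemokine Cxcl11 (0.07), then Cytip (0.11). Ccl9 was nearest to Mlkl, the effector of necroptosis (0.09), the hepatokine Fgl1 (0.10) and C4bp-ps1 (0.11). Ccl6 was nearest to the macrophage genes Cd68 (0.13) and Slc11a1 (0.14) and to Gpr65 (0.15). Ccl4 was nearest to Asprv1 (0.15), Atg16l2 (0.16) and Snx10 (0.18), and Ccl7 to Nr4a3 (0.17), the neutrophil receptor Cxcr2 (0.19) and Cd177 (0.25). Ccl3 was nearest to Clec4d (0.19), Acod1, which makes itaconate (0.25), and Calhm6 (0.26). Ccl2 had as its nearest genes Cxcl2 (0.76), Il1rn (0.77) and Saa3 (0.79), a neutrophil chemokine, the interleukin-1 receptor antagonist and an acute phase protein. Ccl24 was nearest to P2ry1 (0.43), the macrophage receptor Csf1r (0.47) and Klf12 (0.51). At 10 mg/kg of SP70, where Ccl24 differed by 0.13, P2ry1 and Klf12 were not called either (-0.10 and -0.27), whereas Csf1r fell (-1.09). Among the members themselves the closest pairs were Ccl5 with Ccl9 and Ccl4 with Ccl5 (0.36 each).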

How the data were processed

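Array signals were analysed for 35 mouse livers, 1 array per mouse. The labels call the arrays of a group biological replicates. Biotin-labelled RNA was made with the GeneChip 3'IVT Express Kit, per the labels' protocols. The authors deposited 1 linear intensity for each probe set and array, made with MAS5 per the submitters' processing notes, which give no version. How the arrays were scaled is not given in those sources, and nothing was rescaled here. Gene names come from the platform's annotation. RefSeq tables (GRCm38.p6) gave gene order and promoters only.

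Of 45101 probe sets, 64 control probe sets were left out. Log2 was taken of the signal plus 12.5 (a pseudocount set at percentile 10 of the table). Probe sets above 165 on at least 5 arrays were kept, and each gene had 1 probe set (for the 8 genes, that with the highest mean signal). limma 3.58.1 in R 4.3.3 fitted 1 mean per group over 35 arrays, with empirical Bayes moderation and a variance trend, two-sided. The model was tested on simulated data. The number of arrays limits the precision. There were 16 comparisons, 6 with control and 10 between particle groups. Ratios of 2 members within arrays were chosen after the signals had been seen. A permutation test of them was computed and is left out, because the choice rested on the same signals.

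The members, gene lists and comparisons were chosen with earlier results of these data known. Named genes are the 8 members, from each list up to 4 genes with the smallest adjusted p and any described by role, and the 3 genes nearest in pattern to each member. Same-numbered mice of different groups did not deviate together (mean correlation -0.000692 over 105 pairs, from -0.104 to 0.111), so the numbers were not used as a pairing. Alternatives changed the pseudocount, filter, scaling, probe set, variance trend, block and groups fitted, or left out 1 mouse.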

Additional observations from a re-analysis of the deposited data

Results flagged for a closer look

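In 4 of the 56 sets of 5 signals (8 genes in 7 groups) 1 mouse stood apart from its group by Dixon's criterion, and chance alone marks about 1 in 20 such sets. Ccl2 read 9416 in the second SP30 mouse, with the nearest mouse at 7516. Ccl5 read 997 in the fifth SP30 mouse, with the nearest at 596. Ccl7 read 242 in the third mouse of SP70 at 20 mg/kg, with the nearest at 491. Ccl9 read 24402 in the third mouse of SP70 at 40 mg/kg, with the nearest at 30513; this mouse was also the lowest of its group in 7 of the 8 genes.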

How the results depend on the processing

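No called change of the 8 genes turned direction under any alternative. Sign changes of differences that were called neither way, 62 in all and from -0.19 to 0.13, were taken as no change. In 13 of 16 comparisons the number of members called stayed within 1.5 times under every alternative. The exceptions were these. For SP300 at 10 mg/kg against control, 1 was called, and 0 with only the groups compared; leaving out 1 mouse gave 0 to 2. For SP70 at 40 against 10 mg/kg, 5 were called, and 3 with a pseudocount of 1, without the filter or without the variance trend; leaving out 1 mouse gave 2 to 5. For SP70 at 40 against 20 mg/kg, 0 were called, and 1, Ccl2, with a pseudocount of 64, quantile normalization, only the groups compared, or the replicate block (adjusted p = 0.0389); leaving out 1 mouse gave 0 to 2. The block also ended the call of Ccl5 for SP70 at 40 against 10 mg/kg (adjusted p = 0.0506) and changed no other call; the numbers do not pair the mice. Centring each array on its median and a filter of 10 arrays changed none of the 128 single calls. Leaving out 1 mouse changed 39 of 1280, of which 30 were lost and 9 gained. Quantile normalization moved the median of all genes for SP70 at 40 against 10 mg/kg from -0.13 to 0.00, and there Ccl9 was called (log2 0.39, adjusted p = 0.00104) and Ccl5 was not (0.0908). The shift of the ratio of Ccl9 to Ccl6 after SP70 at 10 mg/kg was 0.80 with quantile normalization, 0.83 with the mean of all probe sets and 0.92 with the second probe sets; leaving out 1 mouse gave 0.53 to 0.91. The ratio alternatives were chosen after seeing the data. The causes of these differences were not tested. Signals under 165 limit Ccl2, Ccl3, Ccl5, Ccl7 and Ccl24: where a group lies under it, the log2 change depends on the pseudocount and is no bound.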
